A study of Mus musculus with 6 samples.

Results

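The AP-1 genes described here are Fos, Fosb and Fosl2 of the Fos family and Jun, Junb and Jund of the Jun family, taken by name as 6 of the 18560 genes in a single-cell count table of the adult mouse olfactory bulb. The table held 6 libraries, 2 for each of 3 conditions, from C57BL/6NJ mice aged 14 weeks without a transgene. Control mice had no manipulation per the labels, occluded mice were deprived of odor by naris occlusion, and trained mice had learned an odor discrimination task for a water reward while water deprived, for 6 weeks in both manipulated groups. Each library was made from the pooled bulbs of 3 mice, replicate 1 from males and replicate 2 from females, so sex and preparation cannot be told apart and an animal cannot be seen by itself. The text of the study also speaks of the open side of unilaterally occluded mice as a control, and which bulbs it means for these libraries was not settled here. The dissected tissue also held some olfactory epithelium and was digested in papain for 20 minutes at 37 °C before the cells were captured.

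AP-1 is a pair of basic leucine zipper proteins. A Jun protein can pair with itself or with a Fos protein, whereas Fos proteins need a Jun partner, and the pair binds a short palindromic DNA site. Fos, Fosb, Jun and Junb are immediate early genes whose RNA rises within minutes of calcium entry, growth factor or stress signaling and decays as fast. Fosl2 (Fra-2) and Jund are usually more slowly regulated or steadily present. In the olfactory bulb Fos RNA and protein are widely used as marks of neurons that odors have activated, and the same genes are also known to be induced in many cells, microglia and endothelium among them, while tissue is dissociated with warm enzyme.

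The DNA just upstream of the start site was compared first for the immediate early pair Fos and Jun and for Fosl2, whose RNA followed a different pattern below. These are the 250 bases before the RefSeq start on GRCm38.p6, written 5′ to 3′ on the strand of the gene, at chr12:85473640-85473889 on the plus strand for Fos, chr4:95052223-95052472 on the minus strand for Jun and chr5:32136222-32136471 on the plus strand for Fosl2. Capitals mark a match to a searched motif.
Fos: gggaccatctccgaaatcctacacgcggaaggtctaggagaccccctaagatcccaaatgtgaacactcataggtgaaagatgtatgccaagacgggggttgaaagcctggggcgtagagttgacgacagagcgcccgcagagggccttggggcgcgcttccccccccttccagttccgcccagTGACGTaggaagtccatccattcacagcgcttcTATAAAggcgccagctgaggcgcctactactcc
Jun: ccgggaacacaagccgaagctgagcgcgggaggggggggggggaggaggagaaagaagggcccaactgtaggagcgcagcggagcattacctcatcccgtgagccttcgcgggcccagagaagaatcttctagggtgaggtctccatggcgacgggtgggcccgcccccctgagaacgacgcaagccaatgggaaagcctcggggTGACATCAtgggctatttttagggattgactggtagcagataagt
Fosl2: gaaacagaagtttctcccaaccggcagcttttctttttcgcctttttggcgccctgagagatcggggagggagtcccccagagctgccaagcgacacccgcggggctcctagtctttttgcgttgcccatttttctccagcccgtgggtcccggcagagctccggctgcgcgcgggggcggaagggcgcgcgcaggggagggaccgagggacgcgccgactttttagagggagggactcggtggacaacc
In Fos the first 6 bases of the cyclic AMP response element, TGACGT, lay at positions -66 to -61 and a TATA box, TATAAA, at positions -33 to -28, counted back from the start site. In Jun the 8-base AP-1 type site TGACATCA lay at positions -45 to -38. The window of Fosl2, like those of Fosb, Junb and Jund, held no match to any of the searched letters. Both strands were searched for the whole cyclic AMP response element TGACGTCA, for its shorter form, for the 7-base AP-1 site TGACTCA, for the 8-base AP-1 type site, for the TATA box and for the CArG box of serum response factor. The shorter form lies within the whole element. Of 32851 promoter windows of the same length, 6.47% held the shorter form, 2.93% the 8-base AP-1 type site, 12.4% the TATA box, 4.46% the 7-base AP-1 site, 1.55% the whole response element and 1.47% the CArG box. A match is a description of letters and no evidence that a factor was bound there.

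The libraries held 6705 to 10570 annotated cells and 11841160 to 17065083 UMIs (unique molecular identifiers, each counting 1 captured RNA molecule) in those cells. The first trained library was the shallowest per cell, with a median of 1028 UMIs against 1344.5 to 1723.5 in the other 5, and had the highest median mitochondrial share, 14.4% against 9.25% to 11.6%. Xist and Ddx3y split the libraries by the stated sex of the pools. The names of the cells in both trained libraries start with the number of the other trained library, and the library column of the annotation, which fits the sex of the pools, was used. Of 49931 distinct barcode sequences, 1461 occurred in more than 1 library. The cells were placed in 29 populations, of which 18 were the deposited neuronal clusters and 11 were nonneuronal classes that join deposited clusters of 1 name, and 50671 cells fell in them. The defining markers were in place, with Omp and Gng13 highest in olfactory sensory neurons (n01-OSNs), Cdhr1 in mitral and tufted cells (n17-M/TC-3), Aqp4 in astrocytes and Tmem119 in microglia, except that Sox10, listed for olfactory ensheathing cells, was highest in oligodendrocyte precursors.

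The inducible members were highest in immune cells of the bulb and not in its neurons. Levels are given as CPM, the UMIs of a gene per 1000000 UMIs, of the counts summed over the cells of a population in 1 library, as mean ± SD over the 6 libraries, so the SD holds the differences between conditions and replicates as well. The clusters were made from these genes among others, so levels across populations are a description without a test. Fos was highest in macrophages (1583 ± 508 CPM, n = 6), monocytes (1145 ± 371) and microglia (833 ± 164), followed by olfactory ensheathing cells, the glia that wrap the axons of sensory neurons (250.3 ± 61.2), endothelial cells (201 ± 60.9) and mural cells (157 ± 49.6). In macrophages Fos was 1115 and 1485 CPM in the control libraries, 1790 and 1655 in the occluded and 1030 and 2423 in the trained libraries, so that the trained pair held both the lowest and the highest value. Among neurons the highest mean of Fos was 84.0 CPM, in granule cell cluster n10-GC-4, on only 41 UMIs in 234 cells. Astrocytes were among the lowest, at 18.4 ± 3.84 CPM, close to red blood cells at 15.0 ± 13.8 CPM. Red blood cells have no nucleus and serve here as a rough measure of background. The hemoglobin gene Hba-a1 alone took 199183 CPM there, which leaves a smaller share for other RNAs, so background elsewhere can be higher. Of the 28 gaps between neighbours in the order of Fos, only 2 exceeded the larger SD of the pair, those from microglia to olfactory ensheathing cells and from mesenchymal cells to n10-GC-4.

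Fosb, the close relative of Fos whose truncated form is known to build up in neurons with repeated stimulation, kept nearly the same order at lower counts. Its mean was 192 ± 64.0 CPM in macrophages, 106 ± 47.1 in monocytes and 69.8 ± 16.2 in microglia, and 24.3 ± 12.7 in the granule cell cluster n11-GC-5, its highest neuronal population. In macrophages the libraries of replicate 2 held 246.3, 228.3 and 270.0 CPM of Fosb and those of replicate 1 held 132, 153 and 122, without overlap. Gaps beyond the larger SD stood only between macrophages and monocytes and between microglia and endothelial cells.

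Jun and Junb followed Fos. Jun was 1727 ± 412 CPM in macrophages, 1447 ± 298 in microglia, 999 ± 360 in monocytes, 486 ± 99.1 in endothelial cells and 313 ± 54.0 in olfactory ensheathing cells, with 3 gaps over the larger SD, all between microglia and olfactory ensheathing cells in that order. Junb was highest in microglia, at 1226 ± 216 CPM, and lower in macrophages (894 ± 293) and monocytes (764 ± 261), and among neurons it was highest in n11-GC-5 (151 ± 56.5). The Junb gaps beyond the larger SD stood below microglia, monocytes and endothelial cells. Astrocytes, the nonneuronal class with little Fos, still held 83.6 ± 19.9 CPM of Jun.

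Jund was the evenly spread member. It too was highest in macrophages (560 ± 144 CPM), microglia (433 ± 110) and monocytes (402 ± 116), but myelinating oligodendrocytes (343 ± 61.8), granule cell cluster n09-GC-3 (306 ± 93.7), endothelial cells (295 ± 49.1) and n11-GC-5 (277 ± 44.2) followed, and no gap in its order exceeded the larger SD. Jund was detected in the largest share of annotated cells of the 6 members, 20.9%, against 17.7% for Jun, 12.3% for Junb, 10.2% for Fos, 2.89% for Fosb and 2.86% for Fosl2.

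Fosl2 had another distribution, with its highest levels in neurons. The first of the periglomerular clusters, n02-PGC-1, interneurons around the glomeruli, led with 93.2 ± 27.5 CPM, and the 11 populations with the highest means were all neuronal. In n02-PGC-1 the control libraries held 79.5 and 97.9 CPM, the occluded 66.9 and 70.9 and the trained 141.1 and 103.1, so the groups did not overlap. Endothelial cells led the nonneuronal classes at 29.9 ± 13.4 CPM, whereas macrophages held 19.7, microglia 10.8, astrocytes 9.8 and olfactory ensheathing cells 6.8 CPM. Fosl2 rested on 1625 UMIs in all annotated cells, against 27893 for Jun and 18740 for Fos, and no gap in its order exceeded the larger SD. When only cells with at least 1000 UMIs were kept, granule cell cluster n14-GC-7 took the place of n02-PGC-1 at the head of the order.

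**Figure D1:**
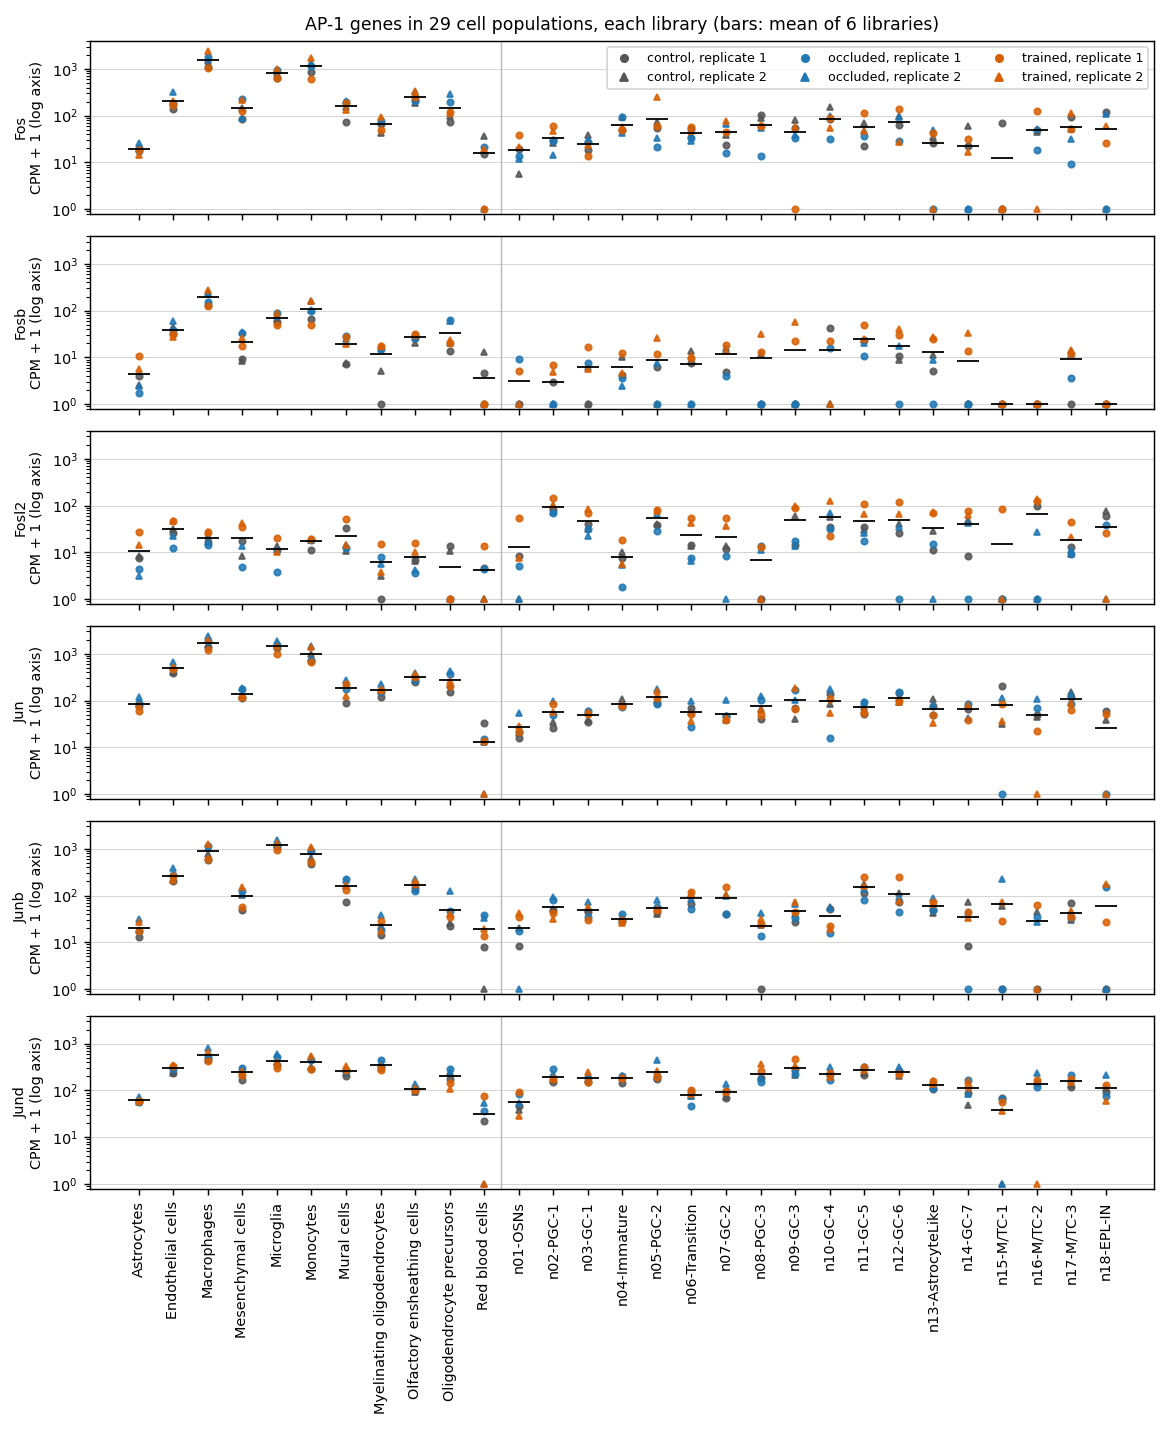
CPM + 1 of each AP-1 gene on a log axis (y) in the 29 populations (x), nonneuronal classes left of the line and neuronal clusters right of it. Each point is 1 library, color and marker give condition and replicate, and the bar is the mean of the 6 libraries; Fos, Fosb, Jun and Junb stand highest in macrophages, monocytes and microglia, and Fosl2 in n02-PGC-1.

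Over the 29 populations the levels of Fos, Fosb, Jun and Junb ran together. The Pearson correlation of log2(CPM + 1) was 0.905 between Fos and Jun, 0.837 between Fos and Junb and 0.824 between Fos and Fosb, and Jund followed with 0.748 with Fos, 0.713 with Jun, 0.712 with Fosb and 0.565 with Junb, while Fosl2 had correlations of -0.141 to 0.245 with the other 5 members. Among 8923 genes with at least 50 CPM in some population, the most like Fos after Jun were Ier2, an immediate early gene (0.879), and Zbp1 (0.877). The most like Jun were Fos, Ier2 (0.880) and Snx5 (0.872), and the most like Junb were Ier2 (0.872), Slc25a45 (0.852) and Cmtm7 (0.846). For Fosb they were Vsir (0.837), Jun (0.834) and Fos. For Jund they were Bri3 (0.937), the actin regulator Pfn1 (0.880) and Sh3bgrl3 (0.872). For Fosl2 they were Ensa (0.831), the glycolytic enzyme Tpi1 (0.789) and Hprt (0.765), with no immediate early gene among them. These values describe 29 points that share the same 6 libraries. Over the same points the correlation with the log2 median depth of the population was between -0.324 (Fosl2) and 0.267 (Fosb).

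Within microglia and olfactory ensheathing cells the RNA of the inducible members sat in a small part of the cells. The cluster deposited as MicroG1 held 790 of the 4001 microglia, or 19.7%, and 85.8% of their Fos UMIs, 87.6% of Fosb, 74.4% of Junb, 68.9% of Jun and 59.0% of Jund, but 34.6% of Fosl2. The cluster OEC5 held 883 of the 11551 olfactory ensheathing cells, or 7.64%, with 76.2% of the Fos UMIs, 79.0% of Fosb, 78.0% of Junb, 63.5% of Jun and 34.6% of Jund, but 6.21% of Fosl2. Mean Fos was 2564 ± 318 CPM in MicroG1, 184 ± 45.4 in MicroG2 and 43 in MicroG3, and 1976 ± 481 CPM in OEC5 against 37 to 111 in the other 4 ensheathing clusters. Mean Jun was 3550 ± 292 CPM in MicroG1 and 2065 ± 407 in OEC5. By mean, both clusters lay above macrophages for Fos, Fosb, Jun and Junb. Macrophages, first among the joined classes for Fos, Fosb, Jun and Jund, were therefore not first among the deposited nonneuronal clusters. MicroG1, which is also of immune cells, was first there for Fos, Jun, Junb and Jund. For Fosb OEC5 (218 ± 31.7 CPM) and MicroG1 (218 ± 28.1) were about equal. The clusters were made from the expression of the same cells, so this contrast is only a description of how the deposited annotation divides them.

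The high level of Fos in these clusters was present in every library and condition. In MicroG1 Fos was 2241 and 2317 CPM in the control, 2409 and 2498 in the occluded and 2944 and 2973 in the trained libraries. In OEC5 it was 1647 and 1623 CPM in the control, 1712 and 2048 in the occluded and 1929 and 2895 in the trained libraries. In both clusters every trained library lay above every control library, and in OEC5 the trained and occluded libraries overlapped. Over the joined populations 13.7% of all gene and population pairs with any UMI lay above control in this way. In the test described below, run on the deposited clusters, Fos was not called between trained and control bulbs. Depth differed between the clusters, with a median of 2336 UMIs in MicroG1 and 748 in MicroG3, and 2352 in OEC5 and 817 in OEC3. When each cell was thinned to 500 UMIs, the mean chance that a cell kept a Fos UMI was 59.3% in MicroG1 and 56.1% in OEC5, and that of a Jun UMI was 76.1% and 57.3%. In the 219 red blood cells, whose median depth was 3894 UMIs, the same shares were 0.827% for Fos and 0.681% for Jun, resting on 10 and 9 cells with a UMI before thinning. Counting intervals here and below do not cover the differences between mice or preparations.

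**Figure D2:**
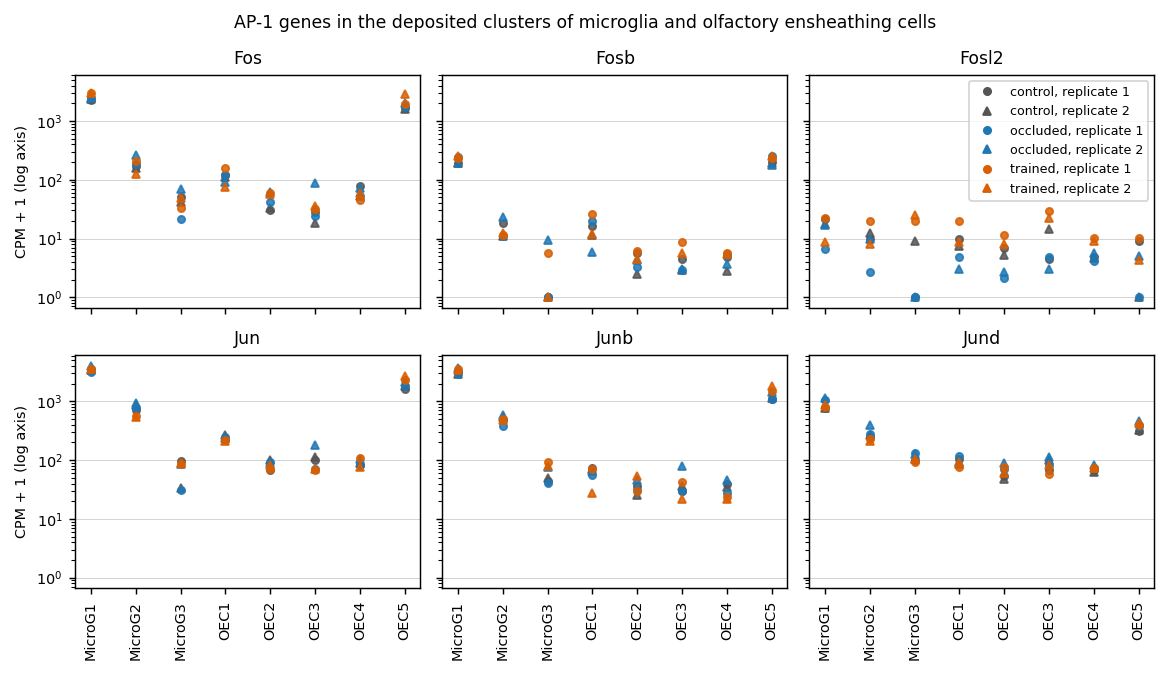
CPM + 1 on a log axis (y) of the 6 genes in the deposited clusters of microglia and olfactory ensheathing cells (x), 1 point per library, colored by condition. All 6 libraries of MicroG1 and OEC5 stand above all libraries of the other clusters of their class for Fos, Fosb, Jun, Junb and Jund, but not for Fosl2.

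The same cells carried Fos and Jun in immune, vascular and ensheathing populations. In 1 random draw of 500 UMIs per cell, 448 of the 648 microglia with a Fos UMI also had Jun, 69.1% (95% Wilson interval 65.5% to 72.6%), against 22.4% (21.0% to 23.8%) of those without Fos. The shares were 67.5% and 17.1% in macrophages, 58.2% and 13.1% in monocytes, 94 of 188 cells against 12.7% in endothelial cells, 48.3% and 5.89% in olfactory ensheathing cells, and 40.9% and 8.27% in oligodendrocyte precursors. They were 32.4% and 4.94% in mural cells, 23.5% and 3.06% in mesenchymal cells and 21.7% and 7.31% in myelinating oligodendrocytes. In none of these 9 did the intervals overlap. In microglia 383 of the 448 cells with both RNAs were in MicroG1, where Jun was in 79.8% of cells with Fos and 66.1% of those without. In MicroG2 it was in 40.4% of cells with Fos against 24.8%. In olfactory ensheathing cells 322 of the 365 cells with both RNAs were in OEC5, where Jun was in 65.3% of cells with Fos and 46.7% of those without. In OEC2, OEC3 and OEC4 it was in 9.90% to 12.2% of cells with Fos against 3.47% to 3.54%, and in OEC1 in 28.9% of 83 cells against 7.65%.

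In neurons both shares were lower. The immature neurons of n04-Immature, with 9.20% (4.73% to 17.1%) of 87 cells against 3.90% (3.33% to 4.56%), were the only neuronal cluster with 20 or more Fos-positive cells in which the intervals did not overlap, and these shares are close to those of OEC2 to OEC4 but not of OEC1 or OEC5. In n13-AstrocyteLike Jun was in 3 of 40 cells with Fos against 3.13% of the others, in n06-Transition in 3 of 45 (6.67%) against 2.79%, and in n17-M/TC-3 in 3 of only 18 (16.7%) against 2.53%. In n11-GC-5 none of 45 cells with Fos had a Jun UMI, with an upper bound of 7.87%, against 3.82% of the cells without Fos. In n07-GC-2 it was 1 of 54 (1.85%) against 1.80%. At 500 UMIs the share of cells with Fos was 2.42% in n11-GC-5, 2.19% in n04-Immature and 1.47% in n07-GC-2. It was 1.13% in n03-GC-1 and 0.819% in astrocytes, near the 0.827% of red blood cells, so the Fos-positive cells of the last pair are not read further. Before thinning, 10 of 219 red blood cells and 99 of 3608 cells of n07-GC-2 held a Fos UMI, at median depths of 3894 and 882 UMIs. The thinned share of red blood cells can therefore understate background in shallow populations. Few neurons had many copies of either RNA. Fos reached 5 or more UMIs in 24 of 21746 neurons and in 1176 of 28925 nonneuronal cells, and Jun in 21 and 1695. Among neurons with such counts of Fos, 16 were in n04-Immature. Cells are not replicates, and these shares over pooled cells are descriptions.

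**Figure D3:**
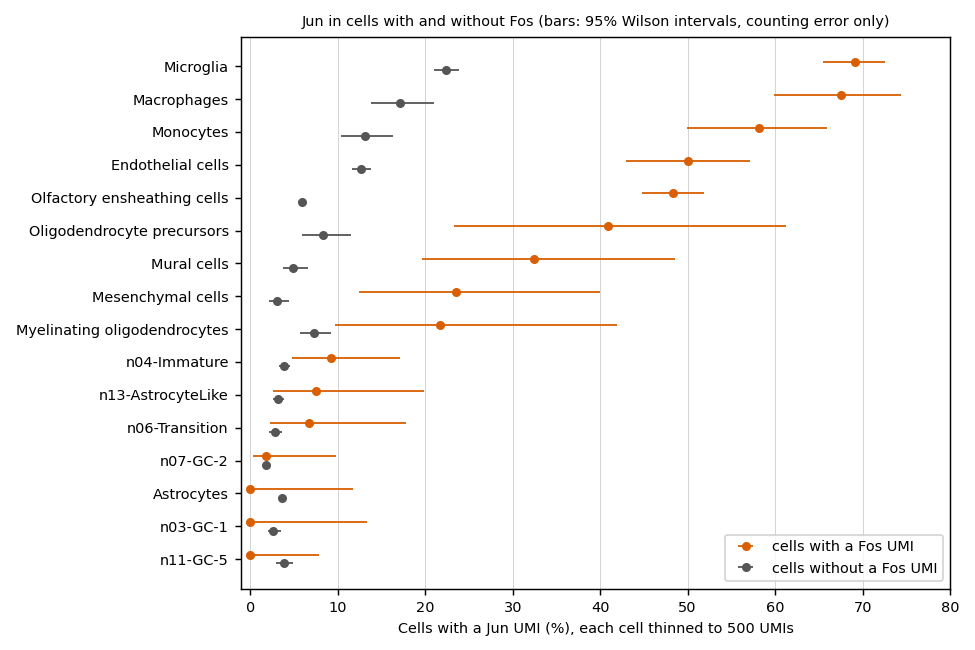
Share of cells with a Jun UMI (x, percent, each cell thinned to 500 UMIs) among cells with and without a Fos UMI, in the 16 populations (y) with 20 or more Fos-positive cells at that depth, with 95% Wilson intervals. From microglia to myelinating oligodendrocytes and in n04-Immature the intervals stand apart, and in n13-AstrocyteLike, n06-Transition, n07-GC-2, n11-GC-5, n03-GC-1 and astrocytes they overlap.

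The comparison of conditions asked whether these genes follow odor input. UMIs were summed per library and population, and the conditions were compared with edgeR's quasi-likelihood test in the 27 populations with at least 10 cells in every library, with Benjamini-Hochberg adjustment over all genes tested in the population and a threshold of 0.05. After a filter on low counts Fos was tested in 20 populations, Fosb in 9, Fosl2 in 13, Jun in 21, Junb in 18 and Jund in 25, or 106 gene and population pairs in all. Fosl2 entered partly through the trained libraries in which it is high, so its counts over the tested populations are given without weight. The populations come from the same 6 libraries and are not independent of each other, and the 3 contrasts share their groups. The smallest p of an exact permutation test (two-sided) over 2 and 2 libraries is 0.333, so the calls rest on a spread estimated across genes.

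Fosl2, which encodes the Fos family protein Fra-2, was higher in trained than in occluded bulbs. It accounted for all 6 pairs called in that contrast, all higher after training, where 0.116% of all gene and population pairs were called higher, 0.0494% lower and 0.166% in either direction. Over whole libraries Fosl2 was 15.0 and 16.1 CPM in the control, 8.25 and 10.9 in the occluded and 39.1 and 23.6 in the trained libraries, so that the 3 conditions did not overlap. The calls were in n11-GC-5, n07-GC-2, n03-GC-1 and n13-AstrocyteLike of the neuronal annotation, and in astrocytes and endothelial cells. In n07-GC-2, n13-AstrocyteLike and astrocytes Fosl2 passed the filter on low counts only through the trained libraries. Its UMIs in the control and occluded libraries were 8, 6, 5 and 0 in n07-GC-2 and 5, 8, 3 and 0 in n13-AstrocyteLike. In astrocytes they were 11, 9, 5 and 3, and the calls of these populations are given without weight.

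The clearest Fosl2 call was in the granule cell cluster n11-GC-5, inhibitory interneurons that shape the output of mitral cells. Fosl2 there was 34.4 and 29.4 CPM in the control, 16.1 and 25.0 in the occluded and 109.8 and 64.5 in the trained libraries. All 3 groups were separate, with the trained libraries highest. The log2 fold change of trained against occluded was 2.10 ± 0.31 (SE, edgeR adjusted p = 0.000443), and that of trained against control 1.45 ± 0.30 (edgeR adjusted p = 0.0466). The latter was the only member called in trained against control, where 0.0559% of all pairs were called, 0.0428% higher and 0.0131% lower. In n07-GC-2, another granule cell cluster, Fosl2 was 10.6 and 12.5 CPM in the control, 7.5 and 0 in the occluded and 53.7 and 36.0 in the trained libraries. Both trained libraries lay above all others there (log2 fold change against occluded 3.14 ± 0.54, edgeR adjusted p = 0.00284), on 61 UMIs after training and 5 after occlusion.

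In n03-GC-1 the trained libraries held 69.4 and 83.1 CPM of Fosl2 against 30.6 and 21.5 in the occluded and 39.8 and 31.3 in the control libraries (trained against occluded 1.53 ± 0.33 on the log2 scale, edgeR adjusted p = 0.0292). The cluster n13-AstrocyteLike of the neuronal annotation had the second highest levels of Gfap and Aqp4 after astrocytes and a median mitochondrial share of 30.5%. It was also second for Omp and Gng13 after n01-OSNs, and the study left it out of its adult-born neurons as ambiguous. Fosl2 there was 10.2 and 27.8 CPM in the control, 14.1 and 0 in the occluded and 69.9 and 71.8 in the trained libraries. The fitted log2 fold change was 2.95 ± 0.70 (edgeR adjusted p = 0.0186), but the occluded libraries held only 3 UMIs against 67, a ratio of pooled CPM of 7.95 with an exact 95% interval of 2.61 to 39.5 for counting error alone.

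Endothelial cells and astrocytes were called in the same direction as joined classes, but no deposited cluster of either was, with the smallest adjusted p in EC1 (edgeR adjusted p = 0.0814) and Astro1 (0.114). In endothelial cells, which line the vessels, Fosl2 was 24.5 and 31.3 CPM in the control, 11.5 and 21.7 in the occluded and 44.8 and 45.5 in the trained libraries (trained against occluded 1.43 ± 0.31 on the log2 scale, edgeR adjusted p = 0.0460). In astrocytes the libraries held 6.5 and 7.3, 3.5 and 2.1, and 26.1 and 13.2 CPM in the same order (2.84 ± 0.50, edgeR adjusted p = 0.0157), on 8 UMIs in the occluded libraries. In both, the trained libraries lay above the control and the control above the occluded. Olfactory ensheathing cells missed the threshold with a log2 fold change of 2.03 ± 0.34 (edgeR adjusted p = 0.0638).

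Counted over all 27 populations without a cut on UMIs, Fosl2 was higher in both trained libraries than in both occluded ones in 20 and lower in none, where 13.2% of all gene and population pairs with any UMI were higher and 15.4% lower. Among the 13 populations with at least 10 Fosl2 UMIs in the control libraries, a cut that does not use the groups compared, trained lay above occluded in 12 and below it in none (16.8% and 18.7% of all such pairs). Trained lay above control in 18 of the 27 and below it in 2 (13.7% and 14.1% of all pairs). Occluded lay below control in 13 and above it in 3 (13.3% and 15.0% of all pairs), a contrast in which no Fosl2 pair passed the test. The highest library was the first trained one in 16 of the 27 and the second in 8. In cells thinned to 500 UMIs, the mean chance of a Fosl2 UMI in neurons was 2.93% and 2.07% in the trained libraries, 0.917% and 1.15% in the control and 0.659% and 0.704% in the occluded. In nonneuronal cells it was 1.39% and 0.853%, 0.497% and 0.611%, and 0.280% and 0.346%, in the same order. In red blood cells, taken as a rough background, it was 0.236% over all libraries, on 3 cells with a UMI before thinning. The occluded nonneuronal shares were close to that value, which can understate background.

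**Figure D4:**
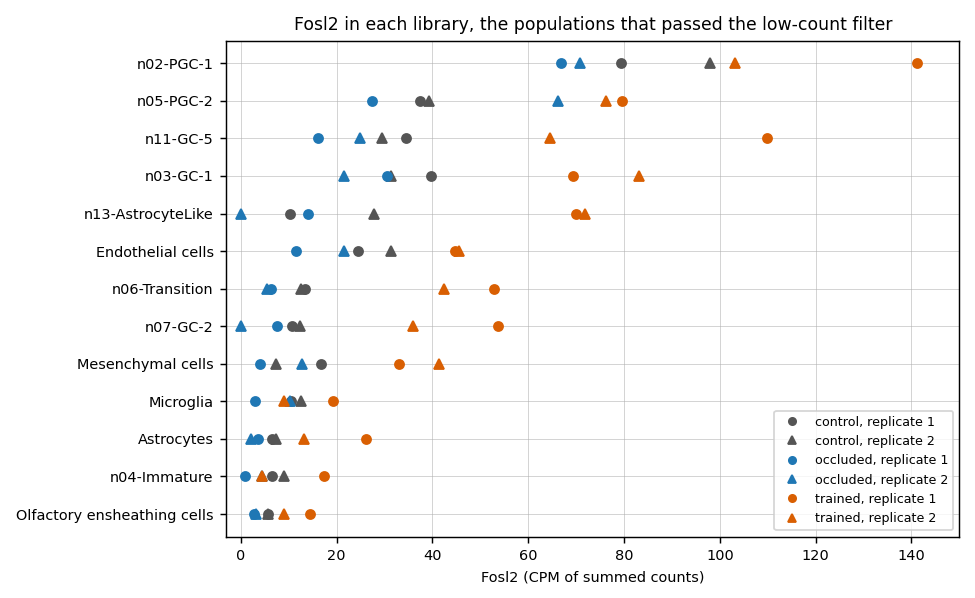
Fosl2 in CPM (x) in each library, for the 13 populations (y) in which it passed the filter on low counts. Orange points are trained, blue occluded and grey control libraries; in the called populations, such as n11-GC-5 and n07-GC-2, both orange points stand right of the others.

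These calls were not kept in every fit. The first trained library was also the shallowest per cell and had the highest mitochondrial share, and its part in the result was not tested. Without it, the count of called members fell from 6 to 2, both of Fos, and none of these 6 Fosl2 pairs stayed under 0.05 (edgeR adjusted p = 0.146 in n11-GC-5, 0.229 in n07-GC-2, 0.238 in endothelial cells, 0.332 in n03-GC-1, 0.414 in astrocytes and 0.825 in n13-AstrocyteLike), although the log2 fold changes stayed between 1.41 and 2.98. In cells with at least 1000 UMIs, 2 of the 6 calls were left, n11-GC-5 (log2 fold change 2.05, edgeR adjusted p = 0.00114) and n03-GC-1 (1.62, 0.0264). Astrocytes (2.91, edgeR adjusted p = 0.101) and endothelial cells (1.21, 0.147) were above the threshold there with fold changes close to those in all cells, as was n11-GC-5 against control (1.45, 0.0732), and Fosl2 was not tested in n07-GC-2 and n13-AstrocyteLike. Without the second trained library the count of called members rose to 13, of which 5 were of Fosl2, while Fosl2 in endothelial cells (0.0512) and n03-GC-1 (0.145) lost its call. Without the first occluded library the calls in astrocytes (edgeR adjusted p = 0.182) and endothelial cells (0.353) were lost, and without the second those in astrocytes (0.400), endothelial cells (0.141), n03-GC-1 (0.122) and n13-AstrocyteLike (0.239). Without the first or second control library the call in n03-GC-1 was lost (0.0660 and 0.0963), as was that of n11-GC-5 in trained against control (0.547 and 0.264), which was also lost without the first trained library (0.836). Fitting only the 4 libraries compared ended the call in n03-GC-1 (edgeR adjusted p = 0.197) and that of n11-GC-5 against control (0.0846). DESeq2 called only n11-GC-5 against occluded (DESeq2 adjusted p = 0.0238) and no member against control, and gave no adjusted p in endothelial cells.

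Some genes of neuronal activity were called in the same contrast. In 77 pairs tested from a list of 12 such genes the median log2 fold change was 0.88. Of these, 9 were higher in trained than in occluded bulbs and none lower, beside 0.116% and 0.0494% of all pairs. No pair of this list was called by DESeq2 or without the first trained library, where the median was 0.76. In n11-GC-5 these included Homer1, a postsynaptic scaffold gene (log2 fold change 1.19 ± 0.19, edgeR adjusted p = 0.00140), the transcription factors Egr1 (1.18 ± 0.21, 0.00420) and Nr4a1 (1.32 ± 0.29, 0.0397), and Nptx2, a secreted synaptic pentraxin (1.97 ± 0.45, 0.0459). In n07-GC-2 Nr4a1 (2.00 ± 0.35, edgeR adjusted p = 0.00303) and Nptx2 (1.37 ± 0.29, 0.0315) were higher, and in n13-AstrocyteLike Egr1 (2.09 ± 0.48, 0.0144). Against control Homer1 alone was called in n11-GC-5 (1.06 ± 0.20, edgeR adjusted p = 0.0246). The summed list in n11-GC-5 was 379 and 441 CPM in the control, 251 and 318 in the occluded and 725 and 581 in the trained libraries. Arc, whose product acts on synaptic receptors, and Npas4, a neuron-specific activity factor, stayed low, with highest means of 39.9 CPM in myelinating oligodendrocytes for Arc and 51.0 CPM in n06-Transition for Npas4.

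A few genes that dissociation and heat are known to induce were also called higher. Of 29 such genes, Cebpd had no row in the table. In 429 pairs tested from the list the median log2 fold change was 0.18. Of these, 13 were higher in trained than in occluded bulbs and none lower, beside 0.116% and 0.0494% of all pairs. DESeq2 called 3 of them, and 3 of 455 pairs were called without the first trained library. Of the 13 calls, 6 were of Hspa8, a constitutive chaperone, between 0.63 ± 0.14 in n02-PGC-1 (edgeR adjusted p = 0.0391) and 1.21 ± 0.20 in endothelial cells (0.0108), and 3 were of Egr1, which stands in both lists. The rest included Klf4, a vascular transcription factor, in endothelial cells (1.22 ± 0.15, edgeR adjusted p = 0.00101), where Klf4 (1.16 ± 0.15, 0.00152) and Klf6 (0.80 ± 0.15, 0.0307) were also higher than in control. Over all populations 7 pairs of the list were higher in trained than in control bulbs and none lower, beside 0.0428% and 0.0131% of all pairs. In endothelial cells the sum was 8386 and 8829 CPM in the control, 9033 and 9507 in the occluded and 12227 and 9756 in the trained libraries, and in n11-GC-5 5936 and 5928, 6067 and 6437, and 7818 and 6766 CPM. The first trained library was highest in both. Over the 27 populations the sum lay higher in both trained than in both occluded libraries in 19 and lower in 0. Against control it lay higher in 19 and lower in 1. For the summed activity genes the counts were 21 and 2 against occluded and 15 and 1 against control. Of single gene and population pairs with any UMI, 13.2% lay higher and 15.4% lower in trained than in occluded libraries, and 13.7% and 14.1% against control. By level among the 29 populations, the dissociation genes Ier2 (659 ± 211.5 CPM), Dusp1 (568 ± 256), Atf3 (146 ± 112) and Hspa1a (80.7 ± 45.3) were each highest in macrophages, as Fos, Fosb, Jun and Jund were. The sum of the whole list was instead highest in astrocytes, at 13292 ± 1395 CPM, against 9703 ± 1418 CPM in macrophages. Hspa8 was highest in n18-EPL-IN (1425 ± 251 CPM). Egr1 was about as high in the neurons of n12-GC-6 (177 ± 80.6 CPM) as in macrophages (176 ± 45.9 CPM), and Nr4a1 was highest in n12-GC-6 (110 ± 39.2 CPM). The part of dissociation or of odor input in the difference of Fosl2 was not tested.

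Some of the other partners and targets were called between trained and occluded bulbs, where 0.116% of all pairs were higher and 0.0494% lower. Among other basic leucine zipper genes, 1 of 101 pairs was called in trained against occluded, Maff, a small Maf protein, in endothelial cells (2.72 ± 0.40, edgeR adjusted p = 0.00316), and it was also higher than in control there (1.74 ± 0.33, 0.0307). Among known AP-1 targets 3 of 71 pairs were higher, such as Vgf, a neuropeptide precursor, in n11-GC-5 (1.12 ± 0.24, edgeR adjusted p = 0.0329). Against control 1 pair of each of these 2 lists was called, Maff and the metallothionein gene Mt2 in myelinating oligodendrocytes, both higher, beside 0.0428% of all pairs. DESeq2 called none of either list against occluded.

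The other 5 members had no call between trained and either other group by edgeR or DESeq2 in the fits described above, with the filter on low counts and the 27 populations. They had calls in other fits, given here mainly for trained against occluded. Against control they also had 3 calls without the filter on low counts, and further ones with some libraries left out, all higher. With the replicate number as a block, Junb was higher in trained than in occluded bulbs in n07-GC-2 (edgeR adjusted p = 0.00198) and n11-GC-5 (0.00365), as was Fos in n17-M/TC-3 (0.0306), and Junb in n07-GC-2 was also higher than in control (0.00922). Without the second trained library, Fos, Jun and Junb in macrophages and Jun and Jund in microglia were lower in trained than in occluded bulbs (edgeR adjusted p from 0.000915 to 0.0211). MicroG1 was 12.1% of the microglia of the first trained library, used alone in that fit, and 24.7% and 24.8% of those of the occluded ones, and within MicroG1 Jun was 3490 CPM in that trained library against 3206 and 4065 in the occluded. In the same fit Fos and Junb in n11-GC-5 and Junb in n12-GC-6 were higher (0.00299 to 0.0205). Without the first trained library, Fos was higher in n05-PGC-2 (edgeR adjusted p = 0.000162) and n17-M/TC-3 (0.00509). Without the first occluded library Fos in oligodendrocyte precursors was lower (edgeR adjusted p = 0.0446). In the deposited clusters Fos was lower in the endothelial cluster EC2 (edgeR adjusted p = 0.0318). It passed the filter on low counts there only through the occluded libraries, so this call is given without weight. Without that filter Jun (edgeR adjusted p = 0.0120) and Jund (0.00317) were lower in microglia, while Fos in n11-GC-5 and n17-M/TC-3 and Junb in n07-GC-2 and n11-GC-5 were higher (0.000239 to 0.0363). Leaving out either control library or the second occluded library added calls of Fos and Junb in neuronal clusters, all higher. In edgeR an unadjusted p under 0.05 between trained and occluded stood in 6 of 20 populations for Fos, 4 of 9 for Fosb, 7 of 21 for Jun, 7 of 18 for Junb and 5 of 25 for Jund, where 7.45% of all pairs had one. Their tested populations had a median log2 fold change of trained against occluded of 0.03 for Fos, 0.03 for Fosb, -0.34 for Jun, -0.18 for Junb and -0.17 for Jund, beside medians over all tested genes between -0.02 and 0.04 in the 27 populations. Against control the medians were 0.36, 0.35, 0.09, 0.43 and 0.25 in the same order, beside -0.03 to 0.04 over all tested genes. Without a cut on UMIs, Fosb lay higher in both trained than in both control libraries in 14 of 26 populations and lower in 1. The counts over 27 were 5 and 2 for Fos, 7 and 4 for Jun, 12 and 2 for Junb and 11 and 1 for Jund. Of all pairs with any UMI 13.7% lay higher and 14.1% lower. For Jun, both trained libraries lay below both occluded ones in 7 of the 20 populations with at least 60 UMIs and above in none, where 18.9% of all pairs lay below and 17.0% above. In n11-GC-5, where Fosl2 was called, Fos was 22.0 and 68.6 CPM in the control, 35.4 and 46.0 in the occluded and 114.4 and 46.4 in the trained libraries (trained against occluded 1.04 ± 0.36 on the log2 scale, edgeR adjusted p = 0.317). The first trained library stood apart from the second there, as it did for Fosb at 47.9 against 24.2 CPM and for Junb at 242.8 against 161.3 CPM. Junb had the smallest adjusted p of the 3 in this contrast (0.91 ± 0.23, edgeR adjusted p = 0.0985).

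**Figure D5:**
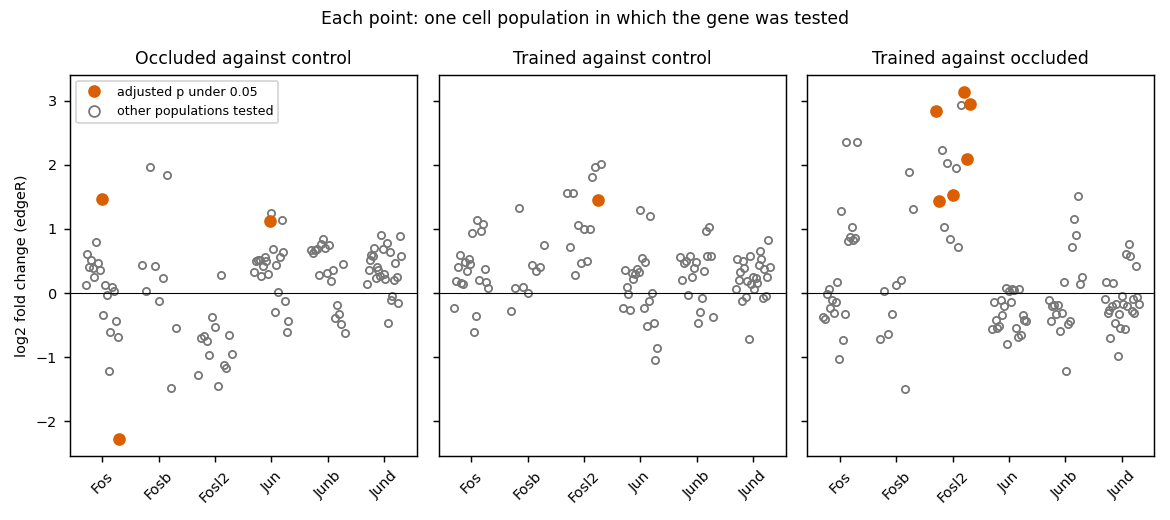
Log2 fold change from edgeR (y) of each AP-1 gene (x) in the 3 contrasts, 1 point per population in which it was tested, filled where the adjusted p was under 0.05. In trained against occluded 6 points of Fosl2 are filled, all above 0, and no point of another gene is. Low counts were filtered over all libraries, so Fosl2 was tested partly where the trained libraries are high.

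Between occluded and control bulbs 3 pairs were called, 2 higher and 1 lower, where 0.0683% of all pairs were called, 0.0203% higher and 0.0479% lower. Both higher calls were in oligodendrocyte precursors, the dividing cells of the oligodendrocyte lineage. Fos there was 72.2 and 97.9 CPM in the control, 190.8 and 288.3 in the occluded and 118.0 and 113.2 in the trained libraries, on 175 UMIs in 397 cells. The occluded libraries lay above the other 4 (log2 fold change against control 1.48 ± 0.29, edgeR adjusted p = 0.0326). Jun followed with 148.7 and 215.4, 370.1 and 437.2, and 203.0 and 254.8 CPM in the same order, again with the occluded libraries above the rest (1.12 ± 0.22, edgeR adjusted p = 0.0326). Fosb in these cells was 12.7 and 19.6 CPM in the control, 63.6 and 57.7 in the occluded and 18.9 and 22.6 in the trained libraries, on 38 UMIs. Fosb passed the filter on low counts there only through the occluded libraries, so these values are given without weight. In the deposited clusters Fos was also higher in occluded than in control bulbs in the endothelial cluster EC2, at 0 and 23.7 CPM in the control, 69.9 and 134.5 in the occluded and 9.2 and 21.9 in the trained libraries (3.25 ± 0.64 on the log2 scale, edgeR adjusted p = 0.00455), on 52 UMIs in all and 5 in control, while the joined endothelial cells were not called. Fos passed the filter on low counts in EC2 only through the occluded libraries, so this call is given without weight. In oligodendrocyte precursors the summed lists overlapped between these groups. The sum of the dissociation genes in these cells was 5186 and 4773 CPM in the control and 4864 and 4858 in the occluded libraries, and that of the activity genes 221 and 122 against 202 and 245 CPM. Such a sum is led by the most abundant genes of its list, so it cannot show whether the less abundant ones differed.

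The lower call was Fos in the mitral and tufted cells of n17-M/TC-3, the excitatory output neurons of the bulb, where 0.410% of the tested genes were called lower and which held 22 of the 94 calls of this contrast over all genes. Fos was 92.5 and 50.7 CPM in the control, 8.1 and 30.3 in the occluded and 49.9 and 112.3 in the trained libraries. The occluded libraries were the lowest of the 6 (-2.27 ± 0.55 on the log2 scale, edgeR adjusted p = 0.0408), on 9 UMIs against 42 in control. Vgf, from the list of AP-1 targets, was lower there too (-2.03 ± 0.50, edgeR adjusted p = 0.0465), and the summed activity genes were 407 and 503 CPM in the control, 228 and 368 in the occluded and 488 and 561 in the trained libraries. The dissociation sum, led by its most abundant genes, overlapped between the groups, with 5742 and 5927 CPM in the control and 5328 and 6086 in the occluded libraries.

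Each of these 3 calls was lost in some other fits, while the fold changes kept their direction. Some fits with a library left out also called pairs of these genes beyond these 3, which are not listed here. With a library left out the log2 fold changes were 1.09 to 1.74 for Fos and 0.86 to 1.39 for Jun in oligodendrocyte precursors and -3.26 to -1.38 for Fos in n17-M/TC-3. The last was -2.93 in cells with at least 1000 UMIs (edgeR adjusted p = 0.191). Fitting only the 4 libraries compared ended all 3 (edgeR adjusted p = 0.126 for Fos and 0.126 for Jun in oligodendrocyte precursors, 0.0644 for Fos in n17-M/TC-3), as did leaving out the first control library (0.551, 0.583 and 0.420), while leaving out the second ended that of Fos in the precursors (0.0842). Without the second occluded library the calls in oligodendrocyte precursors were lost (0.291 for Fos and 0.0980 for Jun), and without the first that in n17-M/TC-3 (0.520). DESeq2 called no member here, with a DESeq2 adjusted p of 1.00 for both genes in oligodendrocyte precursors, and gave no adjusted p in n17-M/TC-3.

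Jund lay higher in both occluded than in both control libraries in 16 of the 24 populations with at least 60 UMIs and lower in none. Of all such pairs 18.9% lay higher and 15.5% lower. No Jund pair was called by edgeR or DESeq2 in this contrast in the fits with no library left out. Fits with a library left out are not covered by that statement. In edgeR 12 of the 25 Jund tests had an unadjusted p under 0.05, beside 4.80% of all pairs. The median log2 fold change of Jund in this contrast was 0.36, beside medians over all genes between -0.01 and 0.03. In the same 24 populations both trained libraries also lay above both control libraries in 10 and below them in 1. They lay above both occluded libraries in 4 and below them in 8. The median log2 fold change of Jund in trained against control was 0.25. The first control library was lowest in 10 of the 24 and the second in 5, against 0 to 4 for each other library. Low control libraries are thus part of the pattern. In microglia Jund was 355 and 408 CPM in the control, 526 and 600 in the occluded and 305 and 405 in the trained libraries (occluded against control 0.57 ± 0.16 on the log2 scale, edgeR adjusted p = 0.997). MicroG1 was 17.3% and 21.6% of the control microglia and 24.7% and 24.8% of the occluded. Within MicroG1 Jund was 767 and 778 CPM in the control, 1058 and 1118 in the occluded and 809 and 860 in the trained libraries. Jun was highest in the second occluded library in 16 of 20 populations with at least 60 UMIs. Occluded lay above control without overlap for Jun in 7 of those 20 and below it in 1, and for Junb above in 7 of 18 and below in none. Among the targets 4 of 71 pairs were lower after occlusion, beside 0.0479% of all pairs. They were Vgf in 3 neuronal clusters and the cyclin gene Ccnd1 in endothelial cells (-1.91 ± 0.30, edgeR adjusted p = 0.0438). No pair of the activity, dissociation and basic leucine zipper lists was called by edgeR or DESeq2 in this contrast, where 15 of 77, 33 of 429 and 5 of 101 had an unadjusted p under 0.05 in edgeR, the last of them near the 4.80% of all pairs.

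Libraries of the same condition differed in these genes as well. Replicate 2 was higher than replicate 1 in 4 pairs and lower in none, where 0.284% of all pairs were called, 0.197% higher and 0.0871% lower. In macrophages Fos (0.52 ± 0.13 on the log2 scale, edgeR adjusted p = 0.0167) and Fosb (0.88 ± 0.25, 0.0347) were higher in replicate 2, in monocytes Jun (0.82 ± 0.16, 0.00726) and in n07-GC-2 Fos (1.07 ± 0.26, 0.0269). For Fos in macrophages the occluded pair ran the other way, with 1790 CPM in replicate 1 and 1655 in replicate 2. Jun in monocytes was 712 and 997 CPM in the control, 740 and 1476 in the occluded and 667 and 1399 in the trained libraries, with every replicate 2 library above every replicate 1 library. Fos in n07-GC-2 was 22.6 and 37.4, 15.0 and 66.8, and 43.3 and 75.5 CPM, with overlap between the replicate numbers.

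A few genes of dissociation were called in this contrast. Of their 429 pairs 7 were higher in replicate 2 and none lower, beside 0.197% and 0.0871% of all pairs. Among them was Dusp1, a stress-induced phosphatase, in macrophages (1.09 ± 0.18, edgeR adjusted p = 6.59e-07) and monocytes (1.08 ± 0.20, 0.00340). Others were Atf3, a stress-induced partner of Jun (1.43 ± 0.29, edgeR adjusted p = 0.000330), and Klf6 (0.94 ± 0.21, 0.00259), both in macrophages. Of the 77 pairs of activity genes none was called by edgeR or DESeq2, and 8 had an unadjusted p under 0.05 in edgeR, beside 5.54% of all pairs. Mmp9, a matrix protease and AP-1 target, was lower in replicate 2 in monocytes (-1.81 ± 0.38, edgeR adjusted p = 0.0101). The summed dissociation genes in macrophages were 8168 and 8467 CPM in the control, 9620 and 10467 in the occluded and 9447 and 12051 in the trained libraries, higher in replicate 2 within each condition. Sex and preparation cannot be told apart here. The calls of Fos and Fosb in macrophages were lost without either trained library (edgeR adjusted p = 0.993 and 0.982 for Fos, 0.593 and 0.653 for Fosb) or either control library (0.220 and 0.484 for Fos, 0.282 and 0.435 for Fosb), and that of Fosb also without either occluded library (0.110 and 0.103). Both were also lost in cells with at least 1000 UMIs (0.0881 for Fos and 0.215 for Fosb), without the filter on low counts (0.0568 and 0.238) and with DESeq2 (DESeq2 adjusted p = 0.998 for both). The call of Fos in n07-GC-2 was lost without any 1 of the 6 libraries (edgeR adjusted p from 0.111 to 0.664), without the filter (0.119) and with DESeq2 (DESeq2 adjusted p = 1.00), and that of Jun in monocytes only with DESeq2 (DESeq2 adjusted p = 0.220).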

How the data were processed

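The authors dissociated the bulbs with papain and made droplet libraries of RNA 3′ ends (10x Chromium Single Cell, v2 kit), read on a NextSeq500. They deposited UMI counts per gene and barcode without normalization, made with Cell Ranger 2.0.0 on mm10 per the submitters' processing notes, and annotations from Seurat 2.2.1 with the library, the cluster and the mitochondrial fraction of each cell after removal of doublets. No further doublet caller was run. A deposited table of log-normalized values was not used. The table held 52549 barcodes, of which 51426 were annotated, and the annotated cells had at least 517 UMIs. Cell names of each trained library begin with the other one's number, and the annotation's library column was used instead. The deposited cluster numbers of microglia and olfactory ensheathing cells differ from those in the tables of the study, and the deposited names are given.

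Nonneuronal clusters of 1 name were joined, because levels of these genes differed widely between them. Counts were summed per library and population and fitted over all 6 libraries with edgeR 4.0.16 in R 4.3.3 (TMM, filterByExpr, quasi-likelihood test, group as the only term, Benjamini-Hochberg over all genes of a population), with DESeq2 1.42.0 as an alternative. The replicate contrast was taken from a fit with group and replicate number. The SE is the log2 fold change divided by the square root of F. CPM are UMIs per 1000000 of the population in a library, over all 18560 genes. For shares, each cell was thinned to 500 UMIs without replacement, and since all annotated cells had more, none was left out. A share is the mean over cells of the exact chance of keeping a UMI, and RNAs seen in the same cell were counted in 1 random draw. The fitting script was tested on simulated data. The tools otherwise were Python 3.11.15, numpy 2.4.6, pandas 2.3.3, scipy 1.17.1 and matplotlib 3.10.9. Promoter letters came from a RefSeq table of GRCm38.p6, in which all 6 members were matched. The alternatives tried were DESeq2, another scaling, no filter, the replicate number as a block, deeper cells, the deposited clusters, only the libraries compared, no mitochondrial genes, and each library left out.

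Named genes were the 6 members, the 3 genes most like each member, of each list the genes called in a population where a member was called (at most 4 a list by adjusted p), and 9 list genes for their levels. The members and lists were chosen with earlier results of these data known. Libraries are separate pools of mice, and 2 per condition limit the precision of every test. Fosl1 and Cebpd had no row in the table. One further gene list, of upstream factors, is not reported here.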

Additional observations from a re-analysis of the deposited data

Results flagged for a closer look

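RNA of the 6 genes was also present in barcodes that no comparison used. In the 1123 barcodes without a cluster, with a median of 2327 UMIs, the pooled level was 166 CPM for Fos, 17.6 for Fosb, 18.2 for Fosl2, 349 for Jun, 249.7 for Junb and 167 for Jund, above the 0.993 CPM that a count of 0 allows. In the 755 neurons without a neuronal subcluster it was 76.5 CPM for Fos, 17.4 for Fosb, 24.0 for Fosl2, 112 for Jun, 102 for Junb and 108 for Jund, above a limit of 1.24 CPM. Over all annotated cells the pooled levels were 215 CPM for Fos, 24.8 for Fosb, 18.6 for Fosl2, 320.1 for Jun, 218 for Junb and 190.2 for Jund.

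Fos differed in opposite directions between occluded and control bulbs in 2 populations. Both occluded libraries lay above both control libraries in oligodendrocyte precursors (log2 fold change 1.48) and below them in n17-M/TC-3 (-2.27). The difference between the populations was not tested.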

How the results depend on the processing

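The counts of called members moved with the processing. For occluded against control the count was 3, and it was 0 with DESeq2, 0 when only the 4 libraries compared were fitted, and 0 to 5 when each library was left out in turn. For trained against control it was 1, and 0 with DESeq2, 7 without a filter on low counts, 4 with the replicate block, 0 in cells with at least 1000 UMIs, and 0 to 4 with a library left out. For trained against occluded it was 6, and 1 with DESeq2, 13 without the filter (11 higher and 2 lower, 7 of them Fosl2), 10 with the replicate block (7 of them Fosl2), 2 in cells with at least 1000 UMIs, and 2 to 13 with a library left out. For replicate 2 against replicate 1 it was 4, and 0 with DESeq2 and 2 to 7 with a library left out. DESeq2 also called fewer of all genes, 29, 37, 88 and 140 pairs in the same order of contrasts, against 94, 77, 228 and 391 by edgeR. The cause of these differences was not tested.

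The 14 called pairs were refitted 177 times, with the same direction and side of the threshold in 110, the same direction above the threshold in 67, and no reversal. The 14 calls held with the other scaling and without mitochondrial genes, 1 of 12 held with DESeq2 (2 adjusted p were NA), 6 of 12 in deeper cells and 4 of 14 without the first trained library. The adjusted p of Fosl2 in n11-GC-5, trained against occluded, ranged from 5.03e-09 to 0.146, with 13 of 14 alternatives under the threshold.

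Replicate numbers mark the sex of the pools and no shared animal. With the replicate block all 10 called pairs of the condition contrasts held. The correlation of the deviations of same-numbered libraries over genes was between -0.296 and 0.323, and was over 0.1 for every pair in only 4 of 27 populations, so the numbers were not taken as pairs.

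Levels were steadier. With a library left out Fos in macrophages was 1415 to 1694 CPM, Fosb 176 to 206, Jun 1599 to 1826, Jund 510.1 to 585, Junb in microglia 1159 to 1284 and Fosl2 in n02-PGC-1 83.6 to 98.5. Junb in microglia was 1010 CPM as the mean of single cells. Shares of cells with a UMI depended on depth. They were 27.9% for Fos, 7.06% for Fosb, 32.5% for Jun and 19.0% for Jund in macrophages, 26.6% for Junb in microglia and 4.28% for Fosl2 in n02-PGC-1 at 500 UMIs, and 41.4%, 20.3%, 48.6%, 43.2%, 47.0% and 15.5% without thinning, or 45.8%, 14.8%, 53.5%, 35.5%, 45.1% and 8.80% at 1000 UMIs, where cells with fewer were left out (397 of 572 macrophages, 3048 of 4001 microglia and 939 of 1037 n02-PGC-1 cells were kept). Fosb rests on 2157 and Fosl2 on 1625 UMIs in all annotated cells, which limits what can be seen in small clusters.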

Other observations

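Cells with a Fos UMI also differed between populations in the other immediate early RNAs they held, in 1 random draw of 500 UMIs per cell. In microglia 65.9% of cells with Fos had Junb, 34.3% Ier2 and 24.2% Egr1, against 18.1%, 3.97% and 3.25% of those without Fos. In macrophages the shares were 49.0%, 43.3% and 19.1% against 8.92%, 7.71% and 2.41%, and in olfactory ensheathing cells 33.1%, 25.6% and 9.27% against 3.02%, 2.48% and 1.58%. In the granule cells of n11-GC-5, in which no cell with Fos had Jun, 7 of 45 (15.6%) had Junb, 13 (28.9%) Jund and 4 (8.89%) Egr1, against 5.79%, 11.5% and 4.13% of the cells without Fos. Within MicroG1 alone Jun was seen in 79.8% of cells with Fos and 66.1% of those without. These are shares over pooled cells and were not tested.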
